A study of Neurospora crassa with 2 samples.

Results

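The genes described here are the short gene models of Neurospora crassa whose product is given only as a hypothetical protein. A gene belonged to the set if its description held those words and its genomic span, from the first to the last base of the model, was at most 800 bp. By this rule 692 of the 9454 genes in the deposited table were members, and their spans ran from 210 to 799 bp with a median of 604 bp. Of these, 689 were described as a hypothetical protein and 3 as a variant of one. The sets they were compared with were 4327 hypothetical protein genes with spans over 800 bp, called longer hypothetical genes below, and 59 genes of 800 bp or less that had an annotated product. The other 4376 genes were longer and annotated.

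Nonsense-mediated mRNA decay is a surveillance pathway that removes transcripts on which translation ends too early or in an unfavourable context, and UPF1 is the RNA helicase at its centre. A gene is called hypothetical when a reading frame was predicted but no function was assigned to its product. In budding yeast, transcripts with short reading frames, upstream reading frames or unspliced introns are among the known substrates of the pathway.

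Polyadenylated RNA was sequenced from hyphae of an upf1 knockout strain and of the wild type, which serves as the reference here. Each strain was represented by 1 library, made from a pool of 3 independently grown flasks. Both strains were kept on minimal slants for 2 weeks and then grown in medium with 2% glucose under constant light for 2 days, with no further treatment. The labels give neither the knockout allele nor the strain background, and with 1 library per strain no difference below has a replicate check or a test.

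The gene table held 56306422 reads of the knockout library and 28189643 reads of the wild-type library, so that 1 read counted for about 2 times as much in wild type (the library totals differed 2.02-fold). In RPKM, which scales a read count by the length of the model and the size of the library, a gene with a length of 1 kb and 3 reads was at 0.0503 in the knockout library and at 0.102 in the wild-type library. The knocked-out gene itself, upf1 (NCU04242, listed in RefSeq as prd-6), had 654 reads and 2.78 RPKM in the knockout library, against 2641 reads and 22.6 RPKM in the wild-type library, 8.15-fold lower (95% interval 7.48 to 8.89). The labels call the material hyphae, and hex-1, which encodes the Woronin body protein that plugs hyphal septa, had 602 RPKM in the knockout library and 1908 RPKM in wild type. Markers of conidia, the asexual spores, differed in both directions: 4 of 6 were higher in the knockout library by 2-fold or more and 2 were lower by as much, with sums of 2529 RPKM in the knockout library and 16070 RPKM in wild type. The sum was set by the hydrophobin gene eas, at 1619 RPKM in the knockout library and 15983 RPKM in wild type. Of 5 mating markers, asd-1 was at least 2-fold higher and poi-2 at least 2-fold lower, with sums of 75.7 RPKM in the knockout library and 23.2 RPKM in wild type, and the 3 mat A genes had no read in either library. These marker differences run alongside every result below, and their part in them was not tested. In pooled cultures a smaller share of a cell type and less RNA per cell cannot be told apart.

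Most short hypothetical genes gave little or no signal. In 30 of the 692 no read was counted in either library. A further 31 had reads in wild type only and 64 in the knockout library only, the library sequenced more deeply. The median member had 62 reads and 2.43 RPKM in the knockout library, against 17 reads and 1.55 RPKM in the wild-type library. Counts of 1 to 3 reads were found for 57 members in the knockout library and for 94 in wild type. A gene was called eligible when it reached 5 RPKM in at least 1 library. This held for 273 members (39.5%), compared with 70.0% of longer hypothetical genes and 79.7% of annotated genes of the same span. The other 419 members stayed below 5 RPKM in both libraries and enter no count of differences. Among the eligible members 193 reached 5 RPKM in both libraries, 69 in the knockout library only and 11 in wild type only. The 69 passed because of the library in which they were high. The main counts and the shares by span, level, structure and position are therefore given again for the 193. The shares by supercontig and the finer splits of structure are not.

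All members together took 475479 reads, or 0.844% of the table, in the knockout library, against 174294 reads, or 0.618%, in the wild-type library. Scaled to the library totals this sum was 1.35-fold higher in the knockout library (exact 95% interval 1.34 to 1.36, counting error only). The 10 members with most knockout reads made up 37.7% of the sum in that library, and 27.9% in wild type. For the other members the sum was 1.17-fold higher (1.16 to 1.18). The 10 were chosen by their knockout reads, and that choice by itself tends to lower the ratio of the rest.

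Ratios were taken as log2 of (RPKM + 1) in the knockout library over (RPKM + 1) in the wild-type library, and the pseudocount of 1 makes them smaller than the true ratio for low genes. A gene was called higher or lower when this ratio passed 2-fold. Of the 273 eligible members, 117 (42.9%) were higher by 2-fold or more in the knockout library. Among all 7367 eligible genes of the table the share was 16.5%. At least 2-fold lower were 16 members (5.86%), against 5.52% of all eligible genes, a share near the background. Of the eligible members, 4 had under 100 reads in both libraries together, and without them the counts were 117 and 14. The median ratio of the eligible members was 0.81, with quartiles at 0.11 and 1.51, while the median over all eligible genes was 0.15. With that 0.15 subtracted from every ratio, 99 members (36.3%) were higher and 23 (8.42%) lower, against 13.3% and 7.43% of all eligible genes.

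Larger differences were rarer and leaned the same way. A 4-fold limit was passed upwards by 36 members (13.2%), with 3.87% of all eligible genes beyond it, and downwards by 9 members (3.30%), with 1.34% of all eligible genes beyond it. Counting error alone can be judged from the exact interval of each fold, computed from reads over library totals. It lay wholly above 2-fold for 95 members (34.8%), a background of 14.9% in all eligible genes, and wholly beyond 2-fold lower for 11 members (4.03%), a background of 5.06%. For 31 of the 273 the interval included 1, for 196 it lay above 1 and for 46 below. In the 193 members that reached 5 RPKM in both libraries, 67 (34.7%) were higher, with 12.1% of the 6535 such genes of the table, and 9 (4.66%) were lower, with 4.82% of such genes. Their median ratio was 0.50. Of these 193, 14 (7.25%) were at least 4-fold higher and 5 (2.59%) at least 4-fold lower. The exact interval lay wholly above 2-fold for 53 (27.5%) and wholly beyond 2-fold lower for 7 (3.63%). With that minimum, longer hypothetical genes had 1.99% higher and 0.819% lower at 4-fold, and 11.0% and 4.83% by interval. Annotated genes of the same span had 1 of 38 higher at 4-fold and 12 (31.6%) by interval, with 0 lower.

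**Figure D1:**
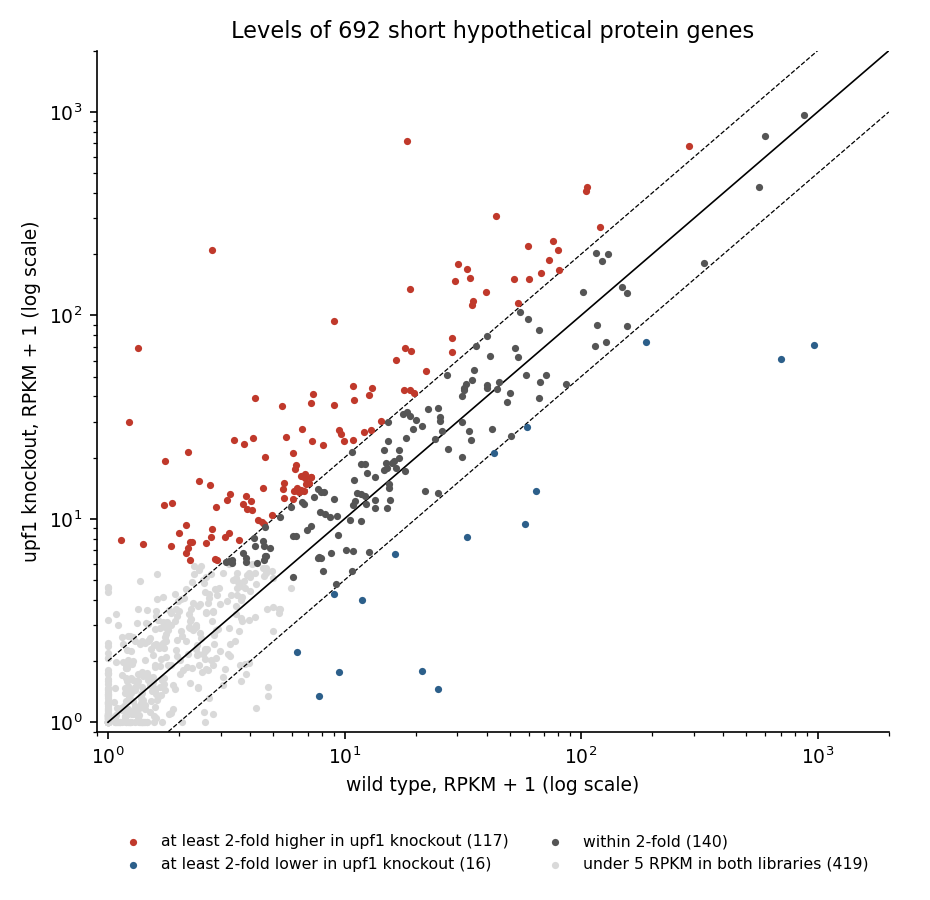
Levels of the 692 short hypothetical protein genes in the upf1 knockout library (vertical) and the wild-type library (horizontal), both as RPKM + 1 on log scales. Each point is 1 gene, the solid line marks equal levels and the dashed lines 2-fold; 117 red genes lie above the upper line, 16 blue genes below the lower one, and 419 pale genes stayed under 5 RPKM in both libraries.

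Longer hypothetical genes differed less often. Of 3031 eligible ones, 556 (18.3%) passed 2-fold upwards and 182 (6.0%) downwards, with a median ratio of 0.21. Annotated genes of 800 bp or less were closer to the short hypothetical genes: 18 of 47 eligible ones (38.3%) were higher and 2 (4.26%) lower, and the median ratio was 0.57. With 5 RPKM required in both libraries the order of the 2 short sets turned: 14 of 38 annotated genes (36.8%) were higher, with a median of 0.59, against 34.7% and 0.50 for the short hypothetical genes. Longer hypothetical genes then had 320 of 2565 (12.5%) higher. The annotated set was the better expressed one, with median levels of 53.0 RPKM in the knockout library and 33.0 RPKM in wild type, against 17.7 RPKM in the knockout library and 10.7 RPKM in wild type for the eligible short hypothetical genes. Among its higher members were NCU06650, annotated as a secretory phospholipase A2, at 44.0 RPKM in the knockout library and 4.12 RPKM in wild type, and NCU00641, a cytochrome c oxidase assembly factor, at 151 RPKM in the knockout library and 33.0 RPKM in wild type; both were chosen after their values were seen. No test of the difference between the 2 short sets is possible with 1 library per strain.

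Up to 800 bp the share of higher genes showed no decline with span. Within the members it was 39.3% for 28 eligible genes of up to 400 bp, 43.5% for 92 genes over 400 and up to 600 bp and 43.1% for 153 genes over 600 bp. Beyond the 800 bp limit the share among hypothetical genes was 26.3% up to 1000 bp, 23.5% up to 1500 bp, 21.9% up to 2000 bp, 14.5% up to 3000 bp and 7.75% over 3000 bp, each bin starting where the one before it ended. Median ratios were 0.53, 0.89 and 0.86 in the 3 bins of members and at 0.55, 0.39, 0.28, 0.15 and -0.01 in the 5 bins above. Among annotated genes 1 of 2 was higher up to 400 bp, 36.4% of 11 between 400 and 600 bp, 38.2% of 34 between 600 and 800 bp, 28.5% of 123 between 800 and 1000 bp and 6.04% of 778 over 3000 bp. For the members at 5 RPKM or more in both libraries the shares were 22.2% of 18, 31.1% of 61 and 38.6% of 114 in their 3 bins, and for longer hypothetical genes 18.6% of 183 up to 1000 bp and 3.85% of 442 over 3000 bp. Each ratio was then centred on the median of its bin of gene model length (8 bins of equal size over all eligible genes). This left 63 members (23.1%) higher and 36 (13.2%) lower, against 11.5% and 8.19% of all eligible genes. The members' median was then 0.25. The eligible members named below and the members' median all shifted by the same amount, so these members lay in 1 bin. NCU11508, of 802 bp, shifted equally, so longer genes shared that bin. Within it the step takes off a constant and does not match genes on length. The 2.02-fold difference in depth between the libraries runs alongside these values, and its part in them was not tested.

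**Figure D2:**
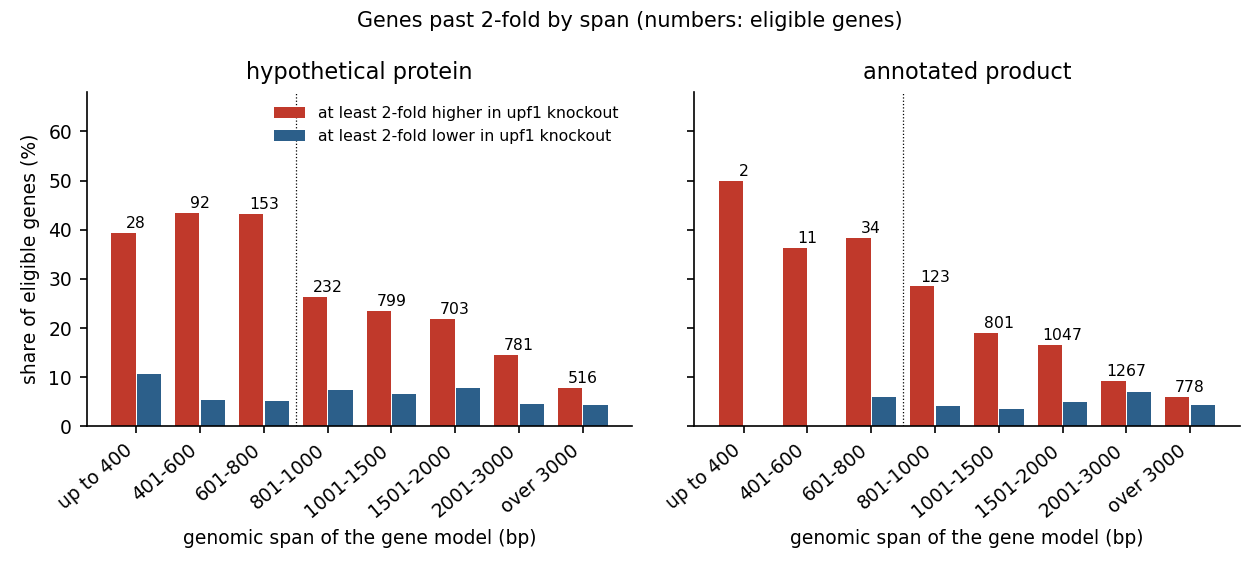
Share of eligible genes at least 2-fold higher (red) or lower (blue) in the upf1 knockout library, in percent, by genomic span in bp, for hypothetical protein genes (left) and genes with an annotated product (right). The number over each pair of bars is the eligible genes in the bin and the dotted line marks 800 bp; the red bars of hypothetical genes stand at 39.3% to 43.5% left of that line and go down to 7.75% over 3000 bp.

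Over expression levels the share of higher members had no steady order. Grouped by the mean of both libraries, 51.4% of 35 members under 5 RPKM were higher, 44.6% of 65 between 5 and 10 RPKM, 37.6% of 117 between 10 and 50 RPKM and 47.8% of 46 between 50 and 200 RPKM. Above 200 RPKM, 4 of 10 were higher and 2 lower. Over all eligible genes the shares in these 5 bins were 47.1%, 19.4%, 15.2%, 14.4% and 10.2%. The members at 5 RPKM or more in both libraries had 24.2% of 33 higher between 5 and 10 RPKM, 32.4% of 105 between 10 and 50 RPKM and 46.7% of 45 between 50 and 200 RPKM. With that minimum, a mean under 10 RPKM caps the ratio, so the share in the 5 to 10 RPKM bin is held down by the filter. An eligible gene can enter the bin under 5 RPKM only by being unequal between the libraries. Longer hypothetical genes had 49.3% higher in that bin and 17.6%, 16.9%, 17.1% and 8.85% in the bins above it.

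Short hypothetical genes also differed among themselves by the structure of the model. RPKM and reads together give the length that the authors divided by, and where it is shorter than the span, part of the span was left out of that length. This is what introns do, but a length that leaves out exons without reads looks the same, and the files do not separate these cases. The length equalled the span in 232 members, was shorter in 429 and longer in 1, and 30 members without reads gave no length. Of 170 eligible members with a shorter length, 88 (51.8%) were higher by 2-fold or more and 6 (3.53%) lower, with a median ratio of 1.05. Where length and span were equal, 28 of 102 (27.5%) passed 2-fold upwards and 10 (9.80%) downwards, around a median of 0.48.

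This split was chosen after earlier results of these data were known, and it was looked at in several ways. Restricted to members with the same length in both libraries and at least 100 reads in total, 82 of 159 (51.6%) were higher where the length was shorter, against 28 of 101 (27.7%) where it was equal. Within each span bin the order held: 60.0% of 10 against 27.8% of 18 up to 400 bp, 52.4% of 63 against 24.1% of 29 between 400 and 600 bp, and 50.5% of 97 against 29.1% of 55 above that. In the same order, the level bins gave 48.8% of 43 against 36.4% of 22 between 5 and 10 RPKM, 47.7% of 65 against 25.0% of 52 between 10 and 50 RPKM, and 55.9% of 34 against 18.2% of 11 between 50 and 200 RPKM. The part left out had a median of 133 bp and a range of 33 to 655 bp. Members lacking up to 100 bp had 29 of 49 higher (59.2%) and those lacking over 100 and up to 200 bp 38 of 70 (54.3%). Those lacking more had 15 of 40 (37.5%). The counting interval showed no steady order, lying wholly above 2-fold for 40.8%, 45.7% and 35% of these groups. For longer hypothetical genes it did so for 18.6%, 16.1% and 19.1%, again without a steady order. Longer annotated genes declined by interval, with 14.0%, 12.1% and 9.33%. Annotated genes of the same span declined as well, with 55.6% of 9, 35.3% of 17 and 25% of 4. Annotated genes of the same span gave 14 of 30 (46.7%) and 4 of 17 (23.5%) in the same 2 classes of structure. Among longer hypothetical genes the shares were 20.1% and 13.2%. Longer annotated genes did not share this order, with 12.9% of 3449 higher where the length was shorter and 14.0% of 551 where it was equal, and over all eligible genes the shares were 17.0% and 14.6%. In the members at 5 RPKM or more in both libraries, 50 of 118 with a shorter length (42.4%) were higher, against 16 of 74 with an equal length (21.6%).

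**Figure D3:**
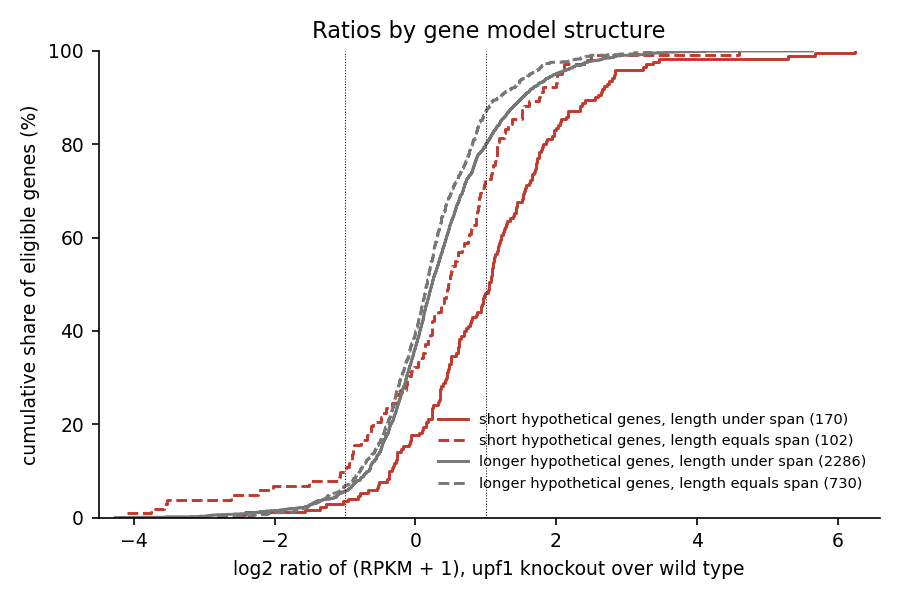
Cumulative share of eligible genes, in percent, by their log2 ratio of (RPKM + 1), upf1 knockout over wild type, for short (red) and longer (grey) hypothetical genes whose length behind RPKM was under (solid) or equal to (dashed) the genomic span, with the number of genes in brackets. Dotted lines mark 2-fold; the solid red line lies furthest right, with 51.8% of its genes past 2-fold higher against 27.5% for the dashed red line.

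The members with the most extreme ratios were taken from those with at least 100 reads in total. The highest ratio belonged to NCU05628, on supercontig 6 from 1274355 to 1274963. It had 209 RPKM from 5787 reads in the knockout library, against 1.75 RPKM from 24 reads in wild type, 119-fold higher (80.2 to 187). NCU08351, on supercontig 1 from 5660261 to 5661005, had 717 RPKM in the knockout library and 17.3 RPKM in wild type, 41.5-fold higher (36.9 to 46.8). Without it, the summed reads of all other members were 1.29-fold higher in the knockout library. Its model overlaps that of NCU08350 by 27 bp, and reads of overlapping models cannot be assigned with certainty, all the more as no label says that the libraries kept the strand. NCU08350 itself was at only 27.6 RPKM in the knockout library and 14.7 RPKM in wild type.

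NCU09277, on supercontig 7 from 4147908 to 4148397, had 67.9 RPKM in the knockout library and 0.339 RPKM in wild type. With 4 wild-type reads, the fold of 200 has an interval of 78.0 to 735. NCU11571, on supercontig 1 from 9423601 to 9424338, had a length equal to its span, with 28.8 RPKM in the knockout library and 0.229 RPKM from 5 reads in wild type. Neither gene was more than barely detected in wild-type hyphae.

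The next 6 were between 7.48-fold and 24.5-fold higher. NCU12056 had 18.3 RPKM in the knockout library and 0.749 RPKM in wild type. NCU05788 had 92.6 RPKM in the knockout library and 8.02 RPKM in wild type. NCU11748 was at 20.2 RPKM in the knockout library and 1.18 RPKM in wild type. These 3 lie on supercontigs 7, 7 and 4. NCU11827 was at 38.3 RPKM in the knockout library and 3.19 RPKM in wild type, NCU07921 at 134 RPKM in the knockout library and 17.9 RPKM in wild type, and NCU08533 at 23.4 RPKM in the knockout library and 2.42 RPKM in wild type. None of the 6 overlaps another model, but that of NCU12056 ends only 27 bp from the model of NCU09280, described below. In each of the 6 the knockout level was above 18 RPKM. The description gives no function for any of these genes.

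On the lower side, NCU11843 and NCU05163 were abundant in wild type. NCU11843, on supercontig 3 from 3225128 to 3225916, had 70.7 RPKM from 3326 reads in the knockout library, against 966 RPKM from 22521 reads in wild type, 13.7-fold lower (13.2 to 14.2). NCU05163, on supercontig 4 from 5906185 to 5906559, had 59.9 RPKM in the knockout library and 701 RPKM in wild type, 11.7-fold lower (11.0 to 12.4). Both were among the 6 most abundant members in wild type. In NCU04879, on supercontig 4 from 596221 to 596514, 8 reads and 0.456 RPKM were left in the knockout library, against 207 reads and 23.8 RPKM in wild type, 52.2-fold lower (26.0 to 123). NCU11684 had 0.793 RPKM in the knockout library and 20.3 RPKM in wild type, 25.5-fold lower (17.7 to 38.1).

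The other 6 were 2.58-fold to 6.79-fold lower. NCU08099 had 8.38 RPKM in the knockout library and 56.9 RPKM in wild type, and its neighbour NCU08100 had 7.11 RPKM in the knockout library and 31.9 RPKM in wild type. NCU05948 was at 12.7 RPKM in the knockout library and 63.5 RPKM in wild type. NCU08224 was at 72.8 RPKM in the knockout library and 188 RPKM in wild type. At lower levels were NCU01529, with 2.99 RPKM in the knockout library and 10.8 RPKM in wild type, and NCU11691, with 1.22 RPKM in the knockout library and 5.31 RPKM in wild type. Each of these 6 genes still had 45 reads or more in the knockout library.

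**Figure D4:**
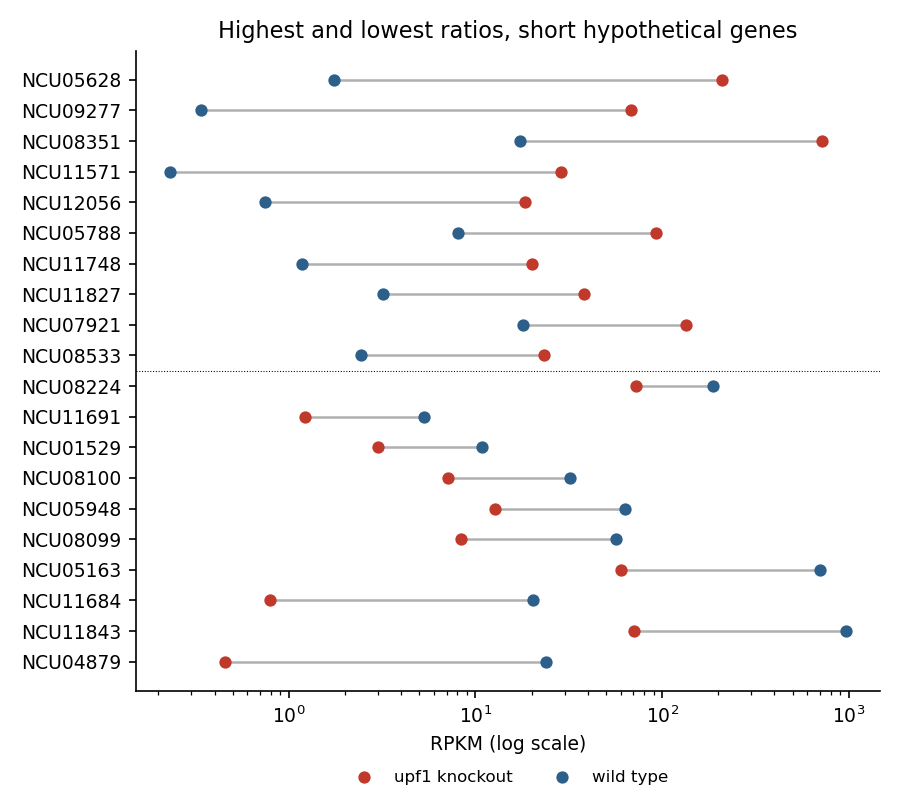
RPKM on a log scale in the upf1 knockout library (red) and the wild-type library (blue) for the 10 short hypothetical protein genes with the highest ratios (above the dotted line) and the 10 with the lowest (below it), among eligible genes with at least 100 reads in total. Each point is 1 library and grey lines join the libraries of 1 gene; the pairs run from NCU05628, at 209 in the knockout library against 1.75 in wild type, down to NCU04879, at 0.456 against 23.8.

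The most abundant short hypothetical genes included both strongly different and nearly equal ones. NCU08351, described above, was the third highest in the knockout library. NCU11745 led the knockout library with 969 RPKM, against 873 RPKM in wild type, a ratio of 1.11-fold (1.09 to 1.13) whose log2 value of 0.15 turned negative once ratios were centred on the median gene. NCU08677 had 757 RPKM in the knockout library and 598 RPKM in wild type, and NCU07439 had 427 RPKM in the knockout library and 563 RPKM in wild type. NCU03969 was 2.40-fold higher, with 682 RPKM in the knockout library and 285 RPKM in wild type, but its model overlaps another, and NCU05119 was 4.09-fold higher, with 429 RPKM in the knockout library and 105 RPKM in wild type. In wild type, NCU11843 came first, followed by NCU11745, NCU05163, NCU08677, NCU07439 and then NCU06301, which had 179 RPKM in the knockout library and 330 RPKM in wild type. So 4 of the 6 highest in wild type were within 2-fold, and the other 2 were the strongly lower genes above. NCU06301, with a log2 ratio of -0.88, passed 2-fold lower with median centring (-1.03), TMM scaling (-1.06), DESeq2 size factors (-1.08) and length centring (-1.44).

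The shortest members that could be measured gave both directions. NCU01579, with a span of 210 bp, had 150 RPKM in the knockout library and 59.5 RPKM in wild type, 2.52-fold higher (2.25 to 2.83). NCU08089, of 213 bp, was at 13.1 RPKM in the knockout library and 14.5 RPKM in wild type. NCU00149, of 228 bp, had 23.3 RPKM in the knockout library and 33.1 RPKM in wild type, and NCU02465, of 234 bp, had 9.17 RPKM in the knockout library and 7.67 RPKM in wild type. The intervals of NCU08089 and NCU02465 included equal levels. In all 4 the length equalled the span.

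At the 800 bp limit, the members just inside were NCU01863, NCU08257 and NCU11349, each of 799 bp. NCU01863 had 0.919 RPKM in the knockout library and 0.850 RPKM in wild type, NCU08257 had no read, and NCU11349 had 11.4 RPKM in the knockout library and 12.5 RPKM in wild type. Just outside were NCU02864, of 801 bp and without reads, NCU11813, of 801 bp with 18 reads in the knockout library and none in wild type, and NCU11508, of 802 bp, with 18.8 RPKM in the knockout library and 2.18 RPKM in wild type. RefSeq (assembly NC12) lists a gene symbol for only 2 members. NCU07040 is paired there with asd-4, a GATA-type transcription factor gene needed for ascus development in Neurospora. It was at 8.88 RPKM in the knockout library and 9.51 RPKM in wild type. The pairing rests on identifiers alone. Whether this model, with a length of 459 bp, covers all of asd-4 was not checked, so its values may not be those of asd-4. NCU03000 is paired with gh61-8, of a family of enzymes that oxidise cellulose. It was not eligible, with 1.44 RPKM from 62 reads in the knockout library and 0.157 RPKM from 3 reads in wild type.

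Some of the extreme members lay beside other genes with a like difference, in stretches picked out after the values were seen. NCU09277 and NCU12056 lie on supercontig 7 with 2 gene models between them. From NCU09276, with 6.03 RPKM from 381 reads in the knockout library and 1 read in wild type, to NCU09281, an alpha-glucosidase gene (gh31-1) with 9.47 RPKM in the knockout library and 3.24 RPKM in wild type, all 7 models had more signal in the knockout library. NCU09278, annotated as an oxidoreductase, was at 35.7 RPKM in the knockout library and 5.48 RPKM in wild type. NCU09280 was at 10.2 RPKM in the knockout library and 0.552 RPKM in wild type. The laccase gene NCU09279 between them was low, at 1.39 RPKM in the knockout library and 0.286 RPKM in wild type. On the far side, NCU09274 went the other way, with 4.73 RPKM in the knockout library and 26.2 RPKM in wild type.

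Lower members were also found side by side. NCU04879 and NCU11684 are adjacent on supercontig 4 with a gap of 641 bp, and NCU08099 and NCU08100 on supercontig 1 with a gap of 471 bp. NCU11843 lies next to NCU00265, a longer hypothetical gene with 59.7 RPKM in the knockout library and 350 RPKM in wild type. Around NCU05628 the directions were mixed: its neighbours NCU05629 and NCU05627, the high affinity glucose transporter gene ght1, were both lower, the first with 14.0 RPKM in the knockout library and 35.3 RPKM in wild type and ght1 with 16.7 RPKM in the knockout library and 41.6 RPKM in wild type. Further out, NCU05630, with a cupin domain, had 6.47 RPKM in the knockout library and 1.03 RPKM in wild type, and NCU05625 had 10.7 RPKM in the knockout library and 1.2 RPKM in wild type.

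**Figure D5:**
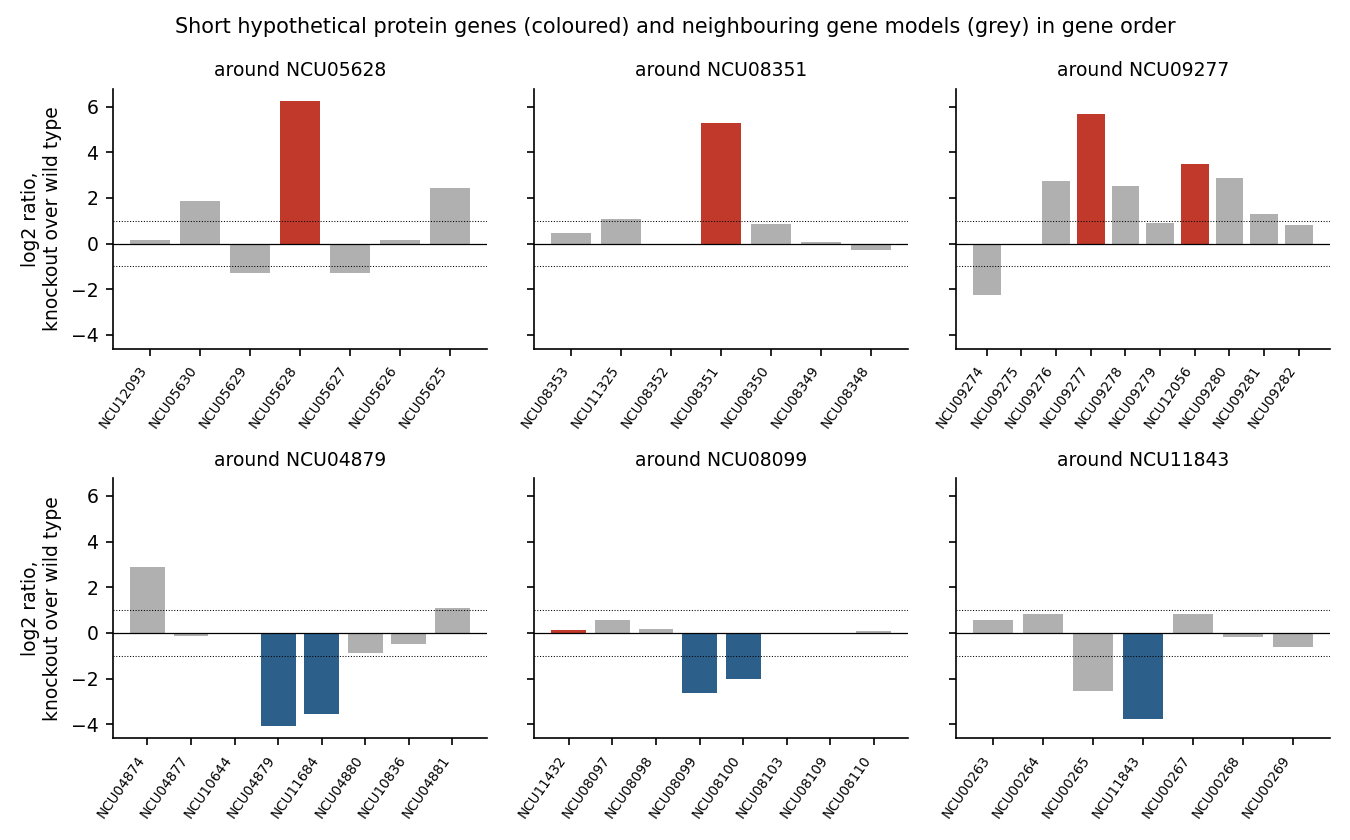
Log2 ratio of (RPKM + 1), upf1 knockout over wild type, for gene models in their order along the supercontig around 6 short hypothetical protein genes chosen for their extreme ratios. Bars of short hypothetical genes are red above 0 and blue below, other genes are grey, and dotted lines mark 2-fold; 7 consecutive models from NCU09276 to NCU09281 are positive, whereas both neighbours of NCU05628 are below -1.

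Neighbours were then counted over all eligible members. Of the 117 higher members, 49 (41.9%) had a directly adjacent eligible gene that was also higher, against 25 of the 140 members within 2-fold (17.9%). Longer hypothetical genes had 42.3% and 21.1% in the same 2 comparisons, and longer annotated genes 34.6% and 21.2%. For members at 5 RPKM or more in both libraries the shares were 43.3% of 67 and 17.1% of 117. That minimum was set on the member only, and a neighbour could still be eligible through 1 library. Members without an eligible neighbour stay in all these denominators. Of the 16 lower members, 7 (43.8%) had a lower neighbour, compared with 25.8% of lower longer hypothetical genes and 24.6% of lower longer annotated genes. Both genes of the 2 adjacent lower pairs named above count among these 7. With 5 RPKM or more in both libraries required of the gene but not of its neighbour, it was 3 of 9 members (33.3%). For lower longer hypothetical genes it was 23.5%. Members were next to each other in 79 pairs, and in 8 of these both were eligible. Of the 8 pairs, 2 were lower in both genes, the pairs named above, and 1 was higher in both, NCU05568 and NCU05567.

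Members also differed from other genes in their annotation history. Identifiers of the later NCU1 series made up 23.6% of members and 9.69% of all genes, and 82.2% of members could be matched in RefSeq. Of 72 eligible members in the NCU1 series 48.6% were higher, and of 201 in the NCU0 series 40.8%, but the counting interval lay wholly above 2-fold for 31.9% of the NCU1 and 35.8% of the NCU0 members. Over all eligible genes 25.6% of the NCU1 and 15.7% of the NCU0 series were higher, and among members at 5 RPKM or more in both libraries 44.0% of 50 and 31.5% of 143. Models that overlap another one were rarer, at 3.61% of members against 9.51% of all genes, and 12 of the 20 eligible ones (60.0%) were higher, with 105 of 253 (41.5%) among those that overlap none. Over all eligible genes these shares were 14.6% with overlap and 16.7% without, and among longer hypothetical genes 14.2% and 18.8%. Among members at 5 RPKM or more in both libraries they were 12 of 19 and 55 of 174. Across the 7 chromosomal supercontigs the share of higher members ran from 24.3% (9 of 37, supercontig 5) to 50.9% (27 of 53, supercontig 1). The counting interval lay wholly above 2-fold for 18.9% on supercontig 5, 35.8% on supercontig 1 and at most 44.1%, on supercontig 3. Longer hypothetical genes had 16.4% higher on supercontig 5 and 18.1% on supercontig 1, and longer annotated genes 11.7% and 12.7%. Among the 33 members within 100 kb of the end of a chromosomal supercontig, 19 were eligible and 10 of those higher. Near the ends 28.2% of all 284 eligible genes were higher, and 16.0% elsewhere. Of 13 members there at 5 RPKM or more in both libraries, 5 were higher.

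Some members had reads in only 1 library. NCU05084 had 96 reads in the knockout library and none in wild type, at least 15.9-fold higher when wild type is put at 3 reads. NCU02876, with 61 reads, and NCU04107, with 55, followed. In the other direction the numbers were small: NCU06163 had no read in the knockout library and 10 in wild type, at least 6.73-fold lower, and NCU07653 had none and 9. These 5 genes were below 5 RPKM in both libraries and were picked by their reads.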

How the data were processed

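One deposited table held, for each gene and library, the read count and the RPKM value; per the file headers these are the authors' own counts and RPKM, and per the submitters' processing notes reads were aligned with Bowtie 0.12.2. The read counter, genome build and annotation are not stated there; RefSeq NC12 was used for names only and matched 8942 of 9454 identifiers by current or older tag. Library totals and gene model lengths were recovered from counts and RPKM; lengths differed between libraries for 84 of 567 members with reads in both (11 of them eligible). Of the lengths of 316 members with 1 length and at least 100 reads, 76.3% were multiples of 3. The strand column was not used, since it lists 90.6% of members, and 74.2% of all genes, on minus. Ratios use RPKM with a pseudocount of 1, a minimum of 5 RPKM in 1 library and a 2-fold threshold; folds use reads over totals with exact Clopper-Pearson 95% intervals, which cover counting error only. The folds and their intervals were checked on simulated counts, but the RPKM ratios and the 2-fold calls were not. Python 3.11.15, scipy 1.17.1, R 4.3.3, edgeR 4.0.16 and DESeq2 1.42.0 (both for scaling factors only) were used. Genes were named by rule: upf1; the 10 highest and 10 lowest ratios among eligible members with at least 100 reads; the 6 most abundant per library; the 4 shortest; those with a symbol; and 3 on each side of 800 bp. Members, lists and splits were chosen with earlier results of these data known. No sequences are shown.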

Additional observations from a re-analysis of the deposited data

How the results depend on the processing

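Each choice was changed alone. The number of short hypothetical genes at least 2-fold higher (117 of 273, 42.9%) was 75 with a pseudocount of 5 (27.5%, all genes 11.3%), 61 with a minimum of 20 RPKM (44.2% of 138), 63 when centred by gene model length (23.1%), 51 with a span limit of 600 bp (42.5% of 120), 178 with one of 1000 bp (35.2% of 505), 36 at 4-fold (13.2%) and 67 with 5 RPKM required in both libraries (34.7% of 193). At 20 RPKM and at 600 bp the count moved with the number of genes. The number lower (16) was 10, 10, 36, 8, 33, 9 and 9 under the same 7 choices, and 28 with no filter. With no filter 151 of 692 members (21.8%) were higher, against 14.9% of all genes. The median ratio (0.81) was 0.57 with a pseudocount of 5, 0.32 with no filter, 0.25 with length centring and 0.50 with 5 RPKM in both libraries. Longer hypothetical genes (556 higher) numbered 360 with a pseudocount of 5, 326 at 20 RPKM, 132 at 4-fold and 320 with 5 RPKM in both. Annotated genes of the same span (18 higher) numbered 8 with length centring, 5 at 600 bp, 53 at 1000 bp and 2 at 4-fold. TMM scaling gave 95 higher and 23 lower members (80.5% of calls higher, 88.0% before) and moved the median of all eligible genes from 0.15 to -0.02. The other changes, to median centring, TMM, a pseudocount of 0.1, DESeq2 size factors, models without overlap, the exact description, at least 100 reads and 1 length for both libraries, left all 5 summaries within 1.5 times or within the interval of the median. The last, the both-library minimum and the count without the mitochondrial supercontig were added after the data were seen. Of 25 named genes past 2-fold, 21 stayed past it in each alternative run and none changed sign; NCU01579 (0.76) and NCU03969 (0.70) came within 2-fold with length centring, NCU11691 (-0.73) and NCU01529 (-0.99) with a pseudocount of 5. NCU06301 and, with length centring, NCU00149 (-1.05) passed 2-fold lower under scalings. The causes of the other changes were not tested. No paired analysis was possible because each strain has 1 library. At this depth, 31 eligible members had intervals that include equal levels.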
